A study of Mus musculus with 24 samples.

Results

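The nuclear genes for the subunits of oxidative phosphorylation were examined in the livers of mice that lack the Mup gene cluster and of their wild type littermates. The members were the nuclear protein-coding genes whose symbols begin with Nduf followed by a, b, c, s or v and a digit, are Sdha to Sdhd, or begin with Uqcr, Cox4 to Cox8 or Atp5. These symbols gave 85 genes, and 79 of them, of 12330 genes in all, passed a filter of 0.66 CPM (counts scaled to a common library size) in 6 or more of the 24 libraries. The filter used the level alone and no difference between groups. The 79 comprised 37 genes of complex I, 4 of complex II, 8 of complex III, 12 of complex IV and 18 of complex V. Complexes were assigned by symbol throughout, so Ndufa4, now regarded as a subunit of complex IV, was counted in complex I. They bear 78 symbols, because Atp5o is annotated as 2 gene models that overlap and whose reads could not be told apart.

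Hepatic RNAseq was available for 4 groups of 6 mice, males (mWT and mKO) and females (fWT and fKO), all 12 weeks old, on the C57/BL6N background, with 1 library per mouse. The KO mice were homozygous for a CRISPR/Cas9 deletion between sites upstream of Mup4 and downstream of Mup21. All of them descended from 1 male founder through intercrosses of heterozygous mice, so the line represents 1 deletion event. All groups ate standard chow ad libitum and were fasted for 4 h before imaging and euthanasia.

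Mitochondria make most of the ATP of a hepatocyte through the respiratory chain. Complex I oxidizes NADH and complex II succinate, both pass electrons to ubiquinone, complex III passes them on to cytochrome c, and complex IV hands them to oxygen. Complexes I, III and IV pump protons, and complex V, the ATP synthase, uses their return to make ATP. Every complex except complex II also contains subunits encoded in mitochondrial DNA, so that its assembly joins products of both genomes. The nuclear genes are scattered over the chromosomes, and NRF1, ETS family factors such as GABP and YY1 are known to act at many of their promoters.

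The stretches before the starts of 5 members are printed as examples. In Ndufa1, Cox7c and Ndufs6 the effect of the KO differed between the sexes with an unadjusted p under 0.01, and Cox6a1 and Sdha are members that were higher in mKO than in fKO mice and hold NRF1 letters. The sequences are from RefSeq (GRCm38.p6), all lie on the minus strand and are written 5′ to 3′, and capitals mark the letters searched for NRF1 (GCGCA, then any base, then GCGC). They end where the RefSeq or the GENCODE M21 gene begins. They lie at chrX:37191239-37191488, chr13:86046905-86047045, chr13:73328543-73328732, chr5:115348982-115349208 and chr13:74350281-74350490.
Ndufa1: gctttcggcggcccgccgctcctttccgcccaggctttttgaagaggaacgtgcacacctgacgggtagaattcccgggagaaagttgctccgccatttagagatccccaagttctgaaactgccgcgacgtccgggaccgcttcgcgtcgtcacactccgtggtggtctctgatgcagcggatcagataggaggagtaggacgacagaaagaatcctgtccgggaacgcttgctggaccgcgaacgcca
Cox7c: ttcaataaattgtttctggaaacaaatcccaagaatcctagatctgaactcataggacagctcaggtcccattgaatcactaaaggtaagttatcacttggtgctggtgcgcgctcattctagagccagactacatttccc
Ndufs6: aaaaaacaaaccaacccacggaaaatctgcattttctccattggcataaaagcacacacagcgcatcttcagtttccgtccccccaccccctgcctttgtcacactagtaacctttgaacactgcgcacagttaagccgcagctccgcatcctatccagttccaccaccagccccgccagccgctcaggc
Cox6a1: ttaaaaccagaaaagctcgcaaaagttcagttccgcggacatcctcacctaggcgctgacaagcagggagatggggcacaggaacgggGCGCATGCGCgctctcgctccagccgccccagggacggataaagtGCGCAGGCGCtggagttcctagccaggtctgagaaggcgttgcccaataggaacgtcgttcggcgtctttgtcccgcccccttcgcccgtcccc
Sdha: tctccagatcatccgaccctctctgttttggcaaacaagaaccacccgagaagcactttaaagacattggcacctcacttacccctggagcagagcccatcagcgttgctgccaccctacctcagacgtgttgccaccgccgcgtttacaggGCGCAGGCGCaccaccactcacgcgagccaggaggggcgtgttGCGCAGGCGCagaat

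Windows of 300 bases, from 250 before to 50 after the RefSeq start, were found for 65 of the 78 member symbols. On both strands of these windows, 17 members (26.2%) held the NRF1 letters, against 5.19% of all 27025 genes with a window. The ETS letters CCGGAAG were found in 16 members (24.6%) and in 9.93% of all genes. The YY1 letters AANATGGCG were found in 10 members (15.4%) and in 2.76% of all genes, and TATAAA in 5 members (7.69%) and in 15.7% of all genes. The windows of members held a median of 19 CG dinucleotides and those of all genes 8. Each motif was counted on its own, also where matches of different motifs overlapped, and a match describes letters, not binding. Cox6a1 held the NRF1 letters 162 and 117 bases before its start, and Sdha 98, 55 and 10 bases before, the last outside the stretch printed. In Ndufs6 the NRF1 letters lay 16 bases before the RefSeq start, in the part inside the GENCODE gene that is not printed. The windows of Ndufa1 and Cox7c held none of the 4 motifs. The members with and without the NRF1 letters had median log2 fold changes mKO minus mWT of 0.08 (17 members) and 0.10 (48 members).

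Each library held between 15361901 and 26261394 counts. The sum over 22 Mup genes lay between 17028 and 37393 CPM in mWT and between 3395 and 5259 CPM in fWT mice, and was at most 0.457 CPM in every KO mouse, which matches the labels. All 9 hepatocyte markers found in the files were expressed, with a summed level of 105879 to 161250 CPM. The muscle marker Mb and the pancreas markers Prss1 and Pnlip had a count of 0 in every mouse. The 4 muscle markers summed to at most 0.159 CPM. The 4 pancreas markers, of which Cela1 passed the filter, summed to between 8.90 and 31.0 CPM. The 3 brown fat markers, of which Elovl3 passed the filter, summed to between 2.91 and 747 CPM. Cela1 and Elovl3 were higher in mKO than in fKO mice (log2 fold change 0.61 and 5.61, adjusted p under 0.05 with edgeR). Elovl3 was also higher in mWT than in fWT mice (4.96, adjusted p under 0.05). In mKO against mWT mice it stood at 1.45 (unadjusted p under 0.01), and the paper names it among the most upregulated liver genes of mKO mice.

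Within each complex the members differed widely in level per kilobase of transcript. The catalytic β subunit of the ATP synthase, Atp5b, was the highest member of complex V and of all members at 576 CPM per kb, and Ndufa4, now regarded as a subunit of complex IV, was the highest with a complex I symbol at 472 CPM per kb. Uqcrh, the acidic hinge subunit of complex III, stood at 367 CPM per kb, Cox4i1, the largest nuclear subunit of complex IV, at 269 and Sdha, the flavoprotein of complex II, at 207. The lowest tested members were Ndufa4l2 (0.725 CPM per kb), Cox7a1 (1.79) and Atp5s (4.02), of which Cox7a1 is the heart and muscle isoform. The median was 60.9 CPM per kb in complex I and between 138 and 172 in the others. Uqcr11 was the lowest of complex III at 85.9 CPM per kb when the reference transcript was used, whereas Uqcrq became the lowest (45.2) when the longest transcript was used, so that end of the order was not fixed.

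**Figure D1:**
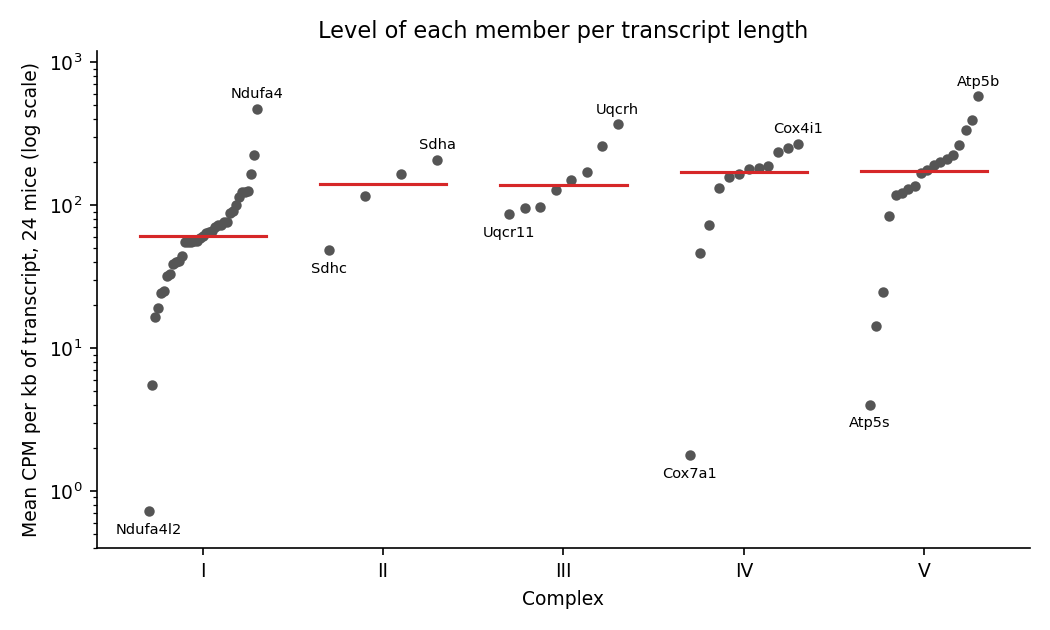
Mean CPM per kb of transcript over 24 mice (log axis) for each of the 79 members, ordered within its complex, with red bars at the medians. Complex I has a median of 60.9 CPM per kb, and the labelled genes are the highest and lowest of each complex, from Ndufa4l2 at 0.725 to Atp5b at 576.

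Several complex IV subunits have isoforms that are used in different tissues. Cox6a1 (181 CPM per kb), Cox6b1 (252), Cox7a2 (178) and Cox8a (156) passed the filter, while the heart and muscle isoforms Cox6a2 and Cox8b and the testis isoforms Cox6b2, Cox7b2 and Cox8c did not. Cox4i2, the lung isoform, was also below the filter. These 6 genes reached 0.66 CPM in 0 of 24 libraries, the highest single value was 0.365 CPM for Cox6b2 (before TMM scaling, as the filter used it), and Cox7b2 and Cox8c had a count of 0 in every mouse. Just inside the filter, on the same unscaled CPM, were Cox7a1 (mean 0.703 CPM, 11 libraries at 0.66 CPM) and Ndufa4l2 (0.676 CPM, 14 libraries). Of the 3 genes for the identical c subunit of the ATP synthase, Atp5g3 stood at 395 CPM per kb, Atp5g1 at 118 and Atp5g2 at 24.7. Every 100-base stretch of the Atp5g2 transcript, and 57.3% of those of Atp5g1, also occur in a transcript of another gene, so the levels of these 2 genes are uncertain. In all, 22 of the 79 members shared more than 10% of their 100-base stretches with another gene. Exons of 6 members overlapped another gene on the same strand and exons of 25 overlapped one on the other strand.

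The summed level of the 79 members was 9978 ± 503 CPM in mWT, 10448 ± 366 in mKO, 9354 ± 431 in fWT and 9246 ± 746 in fKO mice (mean ± SD, n = 6 each). It ran from 9178 through a median of 10041 to 10481 CPM in mWT and from 9750 through 10583 to 10783 CPM in mKO mice. In fWT mice it ran from 8770 through 9295 to 10022 CPM, and in fKO mice from 8145 through 9324 to 10026 CPM. Neighbouring ranges overlapped, mKO mice lay highest by median, and fKO mice spread most. The lowest sum belonged to fKO mouse 5, in which 77 of the members lay below their own mean over 24 mice, with a median deviation of -0.30 on the log2 scale. In that mouse the cytosolic ribosomal protein genes also lay low (median deviation -0.25), as did the mitochondrial ribosomal protein genes (-0.22). Without it the fKO mean was 9467 ± 575 CPM (n = 5). In mWT mouse 1 the members deviated by -0.09, in fWT mouse 3 by -0.19 and in fKO mouse 3 by -0.15, while 5 of the 6 mKO mice lay between 0.11 and 0.16. The summed hepatocyte markers stood at 161250 CPM in fKO mouse 5, the highest of the 24 mice. In mWT mouse 1 they stood at 138278 CPM, the highest of its group, and their relation to the members' values was not tested. In whole liver, fewer cells of a type and less RNA per cell cannot be told apart.

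The summed levels of the single complexes were ordered like the total. Complex V had the highest sum, with 3872 ± 192 CPM in mWT, 3961 ± 160 in mKO, 3623 ± 164 in fWT and 3588 ± 295 in fKO mice (mean ± SD, n = 6 each). The complex IV sum was 1281 ± 75.7 CPM in mWT, 1384 ± 55.1 in mKO, 1184 ± 61.8 in fWT and 1153 ± 104 in fKO mice. For complex IV the mKO mice (from 1291 through 1392 to 1449 CPM) all lay above the fKO mice (from 973 through 1189 to 1262 CPM), while the mWT mice reached 1353 CPM and overlapped them. In complexes I, II, III and V the mKO and fKO mice overlapped. Complex I ranged from 2588 to 2833 CPM in mKO and from 2076 to 2618 CPM in fKO mice and only the lowest mKO mouse lay within the fKO range.

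**Figure D2:**
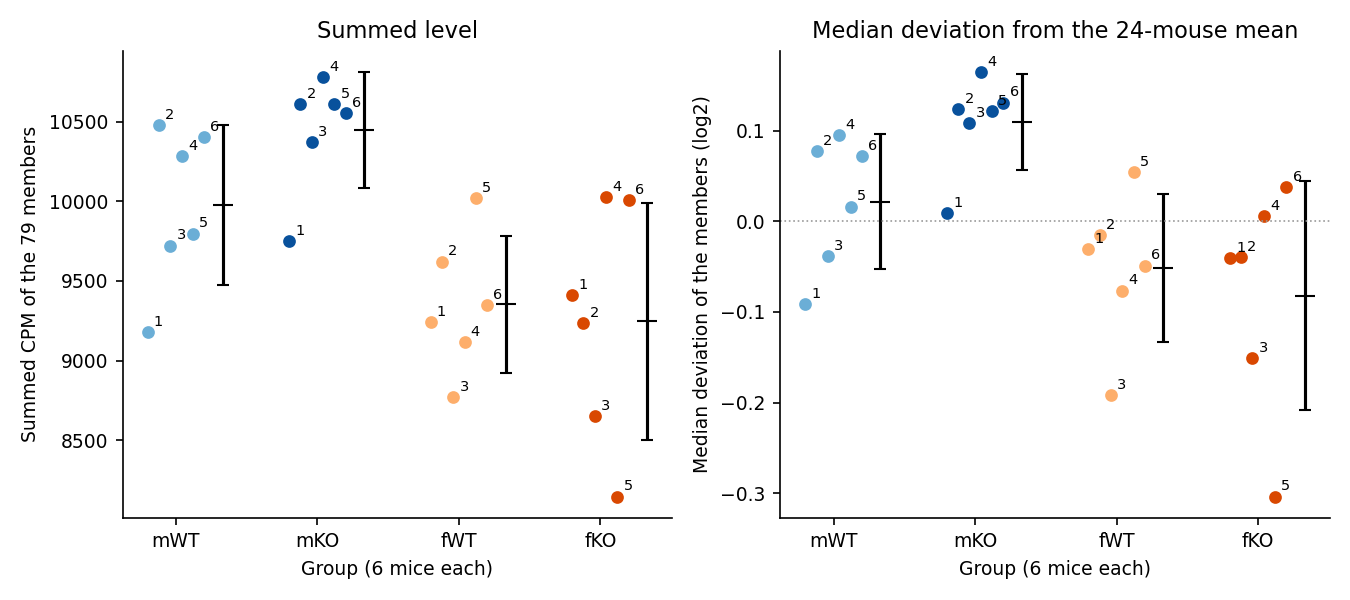
Summed CPM of the 79 members (left) and the median over members of the deviation from each gene's mean over 24 mice, in log2 CPM (right), for each mouse, numbered by its label, with the mean and SD of each group beside the points. Of the 6 mKO mice, 5 lie above 0.1 on the right, and fKO mouse 5 is lowest in both panels.

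The first question was whether the loss of the Mup cluster moved the subunit genes in males. A total of 72 of the 79 members were higher in mKO than in mWT mice by fitted value, with a median log2 fold change of 0.09 (6.26%). For scale, each mouse's median deviation over the members, in log2 CPM, had an SD between mice of a group of 0.09, pooled over the groups. This SD does not describe single members. Ndufa1, an X-linked accessory subunit of the membrane arm of complex I, and Cox7c, a small subunit of complex IV, were the 2 members with an unadjusted p under 0.01, both higher in mKO, and 0 members were lower. Among all 12330 genes, 1.8% were higher and 1.72% lower by the same rule, so 2 of 79 (2.53%) is close to the background. With an unadjusted p under 0.05, 11 members were higher, which is 13.9% against a background of 5.31%. No member had an adjusted p under 0.05 in edgeR's quasi-likelihood test or in DESeq2, a rule met by 0.211% of all genes in either direction. Over all genes 49.4% lay above 0.

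Ndufa1 (ENSMUSG00000016427, chrX:37187588-37191163) was expressed between 44.9 and 54 CPM with a median of 50.2 in mWT and between 55.3 and 63.4 with a median of 56.4 in mKO mice. The 6 mKO mice all lay above the 6 mWT mice, and Ndufa1 was the 1 member whose male groups did not overlap, as was the case for 0.584% of all genes in that direction. This was a log2 fold change of 0.23 with a standard error of 0.07 (adjusted p = 0.189 with edgeR). Without mWT mouse 1 its unadjusted p no longer lay under 0.01. Cox7c (chr13:86044816-86046904) ran from 61.1 through 70.5 to 76.5 CPM in mWT and from 71.3 through 81.2 to 86.4 CPM in mKO mice. Of the 6 mKO mice, 5 exceeded every mWT mouse, and the groups overlapped through 1 mKO mouse. Cox7c differed by a log2 fold change of 0.19 with a standard error of 0.07 (adjusted p = 0.253), and 44.4% of its 100-base stretches also occur in transcripts of other genes. Cox7c no longer had an unadjusted p under 0.01 when any 1 of 8 mice was left out (mWT 1, 2, 3 and 5, mKO 2, 4, 5 and 6), and without mWT mouse 1 no member had one.

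By complex, the median log2 fold change in males was 0.10 for the 37 genes of complex I, 0.08 for the 4 of complex II, 0.10 for the 8 of complex III, 0.13 for the 12 of complex IV and 0.06 for the 18 of complex V. All members of complexes II and III lay above 0, as did 33 of complex I, 11 of complex IV and 16 of complex V. Among the other members of complex IV with an unadjusted p under 0.05, Cox6a1, the liver isoform of subunit VIa, had a log2 fold change of 0.19 (adjusted p = 0.382), Cox6c 0.18 (adjusted p = 0.362), Cox8a 0.16 (adjusted p = 0.409) and Cox7a2, the liver isoform of subunit VIIa, 0.14 (adjusted p = 0.471). In complex V the small subunit Atp5mpl stood at 0.17, and in complex I Ndufs6, a zinc-binding subunit, stood at 0.16, Ndufa2 at 0.22, Ndufa4 at 0.17 and Ndufb8 at 0.16, which completed the 11. The 21 core or defining subunits, among them those with the redox centres and catalytic sites, had a median of 0.06 and the 58 others 0.11. Among the core subunits, Ndufv1, which binds NADH and FMN, had a log2 fold change of -0.01, Uqcrc1 0.01, Atp5a1 0.00 and Atp5b -0.00. Cox7a1 had the largest fitted value (0.48, standard error 0.26) at a mean level of 0.616 CPM in mWT and 0.864 CPM in mKO mice, and the lowest values were those of Ndufa4l2 (-0.18, standard error 0.26), Cox7a2l (-0.08) and Atp5s (-0.06).

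The fitted differences went with the length of the transcripts. Members are short, with a median of 758 bases against 2835 over all tested genes. Over the 79 members the log2 fold change mKO minus mWT fell with length (Spearman's rho -0.58, Pearson's r with log2 length -0.51; the points are genes of the same 12 libraries and are not independent). The 40 members up to the median length had a median of 0.12 and the 39 longer ones 0.06. The longest members, Sdhc (3171 bases), Sdha (2900), Ndufs1 (2590) and Atp5a1 (2471), are all core subunits. The split into core and other members was therefore not separated from length. The 358 other tested genes of at most 758 bases had a median of 0.07, with 69% above 0. When offsets for transcript length and GC content were fitted, the median over the members was 0.03 instead of 0.09 in males, and 0 members had an unadjusted p under 0.01. The cause of the trend with length was not tested.

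**Figure D3:**
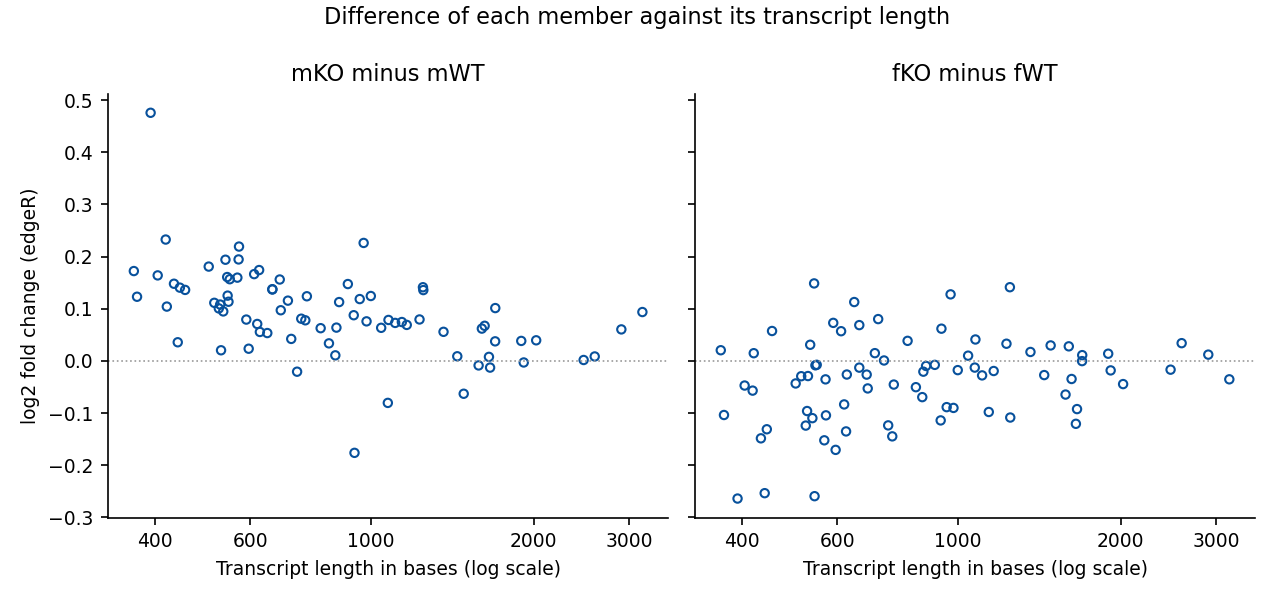
Log2 fold change of each of the 79 members (edgeR, vertical axis) against the length of its transcript in bases (log axis), for males (left) and females (right). In males the shorter members lie higher (rho -0.58) and in females slightly lower (rho 0.24).

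The same comparison was made in females. The median log2 fold change fKO minus fWT was -0.03, and 26 of the 79 members lay above 0, against 49.1% of all genes. No member had an unadjusted p under 0.01 with edgeR or DESeq2 (background 0.406% higher and 0.47% lower), and none had an adjusted p under 0.05 (background 0.0892%). With an unadjusted p under 0.05, 3 members were lower (3.8%, background 2.38%) and 0 higher. These were Atp5g2 (log2 fold change -0.25), Ndufa11, a membrane-arm subunit of complex I (-0.26), and Ndufs6 (-0.15), each with an adjusted p of 0.929. The groups overlapped for every member. Without fKO mouse 5, which lay low for most members, the median became 0.01. With library sizes as the only scaling, 2 members were lower with an unadjusted p under 0.01 and 10 lay above 0, against 26 with TMM. Without fWT mouse 2 the count under 0.01 was 1, and without fWT mouse 3 it was 2. All 6 Kupffer cell markers (median -0.29) and all 6 endothelial markers (median -0.07) had fitted values below 0 in the same comparison, none with an unadjusted p under 0.01. The summed Kupffer level ran from 121 to 225 CPM in fWT and from 102 to 183 CPM in fKO mice, the endothelial one from 141 to 190 CPM and from 131 to 189 CPM, and their part in the members' values was not tested.

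**Figure D4:**
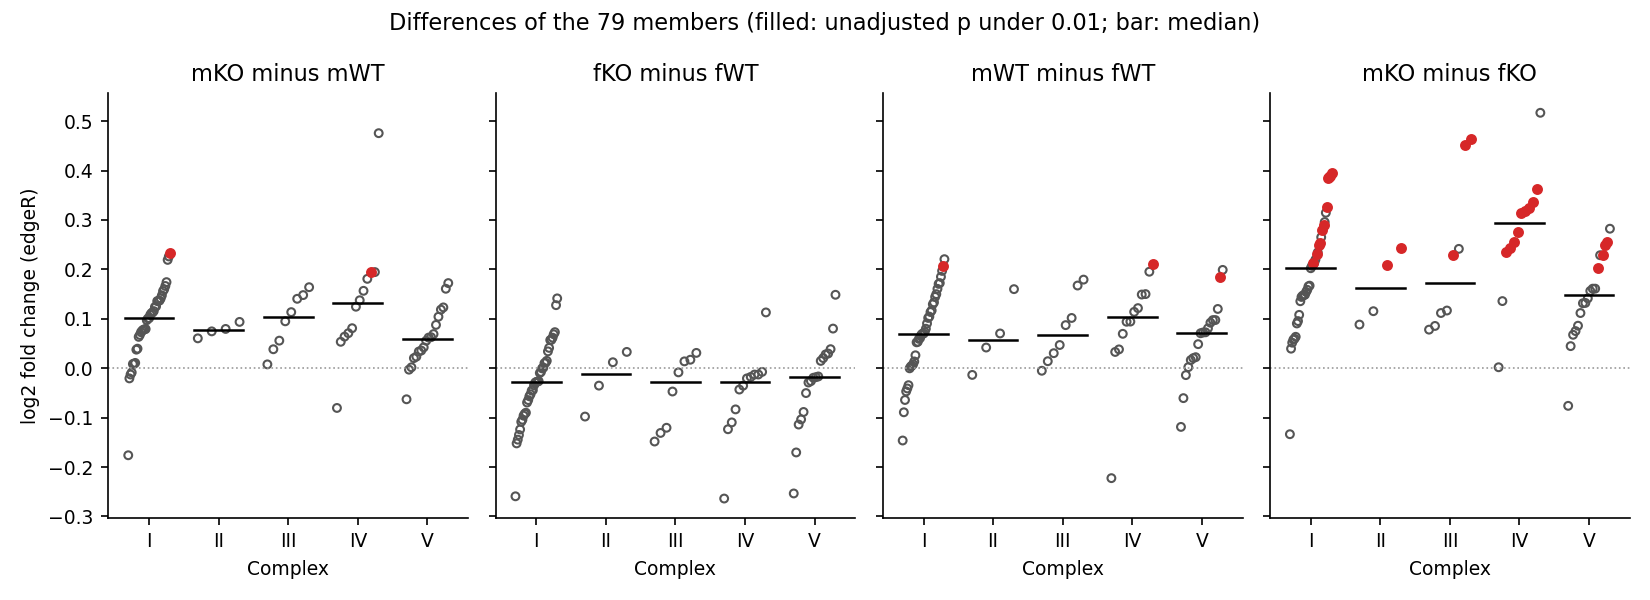
Log2 fold change of each member (edgeR) by complex in 4 comparisons. Filled points have an unadjusted p under 0.01 (2 in males, 0 in females, 3 between wild type sexes, 29 between KO sexes) and bars are medians.

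The second question was whether the KO effect differed between the sexes, tested as the difference between the male and the female log2 fold changes. That difference was above 0 for 71 of the 79 members, with a median of 0.10. Of the members, 3 had an unadjusted p under 0.01, all in this direction (3.8%, background 0.503% higher and 0.657% lower), and 8 had an unadjusted p under 0.05 (10.1%, background 2.77%). No member had an adjusted p under 0.05 with edgeR or DESeq2, a rule that 0.00811% of all genes met. The 3 members were Cox7c (difference 0.30, standard error 0.09), Ndufs6 (0.31, standard error 0.10) and Ndufa1 (0.29, standard error 0.10), each with an adjusted p of 0.816. Ndufs6 (chr13:73319838-73328542) ran from 47 through 51.6 to 56 CPM in mWT and from 53.4 through 57.6 to 62 CPM in mKO mice. It ran from 42.2 through 51.8 to 56 CPM in fWT and from 39.1 through 47.2 to 50.3 CPM in fKO mice. In each sex the groups overlapped, with the KO mice higher in males and lower in females. In fKO mice Cox7c ran from 53.1 through 65.5 to 69.4 CPM and in fWT mice from 63.3 through 68.6 to 74.8 CPM. Ndufa1 ran from 40.1 through 48.7 to 56.3 CPM in fKO and from 49 through 51.1 to 53.3 CPM in fWT mice. For both genes the female groups overlapped. The unadjusted p of Cox7c was under 0.01 in all 10 alternative analyses and after each of 24 mice was left out. That of Ndufa1 was not when any 1 of 10 mice was left out (mWT 1 and 2, mKO 2 and 6, fWT 1, 4 and 5, fKO 3, 4 and 5), nor that of Ndufs6 without fWT mouse 5. Without fWT mouse 3 the number of members was 5, and without fWT mouse 5 it was 1. With the offsets for length and GC content the median difference was 0.03, and 1 member remained.

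Among wild type mice most members had slightly higher fitted values in males, and few passed the test. The median log2 fold change mWT minus fWT was 0.07, with 66 of the 79 members above 0, against 49.6% of all genes. Of the members, 3 had an adjusted p under 0.05, all higher in mWT (3.8%), where 8.51% of all genes were higher and 8.81% lower. Cox7a2 (chr9:79755361-79759878) ran from 109.5 through 121.2 to 138.3 CPM in mWT and from 96.9 through 107.4 to 111 CPM in fWT mice, and 4 of 6 mWT mice exceeded every fWT mouse. The log2 fold change of Cox7a2 was 0.21 with a standard error of 0.07 (adjusted p = 0.0283). Ndufa10, an accessory subunit of complex I related to nucleoside kinases, ran from 115 through 125 to 139 CPM in mWT and from 97.9 through 106 to 127 CPM in fWT mice, with overlap (0.21, adjusted p = 0.0402). Atp5a1, the α subunit of the ATP synthase, ran from 818 through 893 to 937 CPM in mWT and from 739 through 782 to 843 CPM in fWT mice, with overlap (0.18, adjusted p = 0.0468). These calls depended on the analysis. The count was 6 with DESeq2, 15 with offsets for length and GC content, 1 without the filter or with the 2 groups fitted alone, and 0 with upper-quartile scaling or library sizes alone, where 50 and 53 members lay above 0. It was 6 without mWT mouse 1, 1 without mWT mouse 3, 5 or 6 or fWT mouse 2 or 4, and 0 without mWT mouse 2 or 4 or fWT mouse 1 or 3.

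Among KO mice the sexes differed for many members. In mKO mice 28 of the 79 members (35.4%) were higher than in fKO mice with an adjusted p under 0.05 and 0 were lower, where 7.26% of all genes were higher and 7.13% lower. The median log2 fold change was 0.20 (15.1%), and 77 members lay above 0, against 49.0% of all genes. With the offsets for length and GC content the median was 0.12 and 22 members passed, and Ndufb9, Ndufv1, Sdhb, Uqcrc1, Cox4i1, Cox6a1 and Cox8a no longer did. The 28 were 11 genes of complex I, 2 of complex II, 3 of complex III, 9 of complex IV and 3 of complex V, and the median was 0.20, 0.16, 0.17, 0.29 and 0.15 in that order. For 9 members the ranges did not overlap between mKO and fKO mice, all higher in mKO, as was the case for 3.84% of all genes in that direction. These were Ndufa4, Ndufb3, Ndufs6, Uqcr10, Cox6c, Cox7a2, Cox7c, Cox8a and Atp5j2. Whether the sex difference itself differed between KO and wild type mice is the same contrast as the difference between KO effects, for which no member had an adjusted p under 0.05.

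Of the 12 tested genes of complex IV, 9 were among the 28. In fKO mice Cox7a2 ran from 90 through 106.4 to 115.2 CPM and in mKO mice from 129.7 through 136.1 to 139.9 CPM, without overlap. The level of Cox7a2 was 1.29-fold higher in the males, which is 0.36 on the log2 scale with a standard error of 0.07 (adjusted p = 0.000332). Cox7c followed with 0.34 (adjusted p = 0.000754), Cox6a1 with 0.32 (adjusted p = 0.00815), Cox6c with 0.32 (adjusted p = 0.00339), Cox8a with 0.31 (adjusted p = 0.00214) and Cox6b1 with 0.28 (adjusted p = 0.00387). Cox7b (0.26), Cox4i1 (0.24) and Cox5b (0.23) completed the 9 members. With the offsets Cox6a1 stood at 0.19 (adjusted p = 0.0683), Cox8a at 0.18 (adjusted p = 0.0565) and Cox4i1 at 0.12 (adjusted p = 0.129). Cox4i1 also no longer had an unadjusted p under 0.01 when any 1 of 7 mice was left out. Cox7a2l, a factor of supercomplex assembly, stood at 0.00, and Cox5a at 0.14 with an adjusted p of 0.296.

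In complex III the small subunits Uqcr10 (0.46, standard error 0.09, adjusted p = 0.000938) and Uqcr11 (0.45, standard error 0.13, adjusted p = 0.0237) had the largest differences among members past the threshold. Uqcr10 ran from 29.6 through 34.7 to 42 CPM in fKO and from 42.1 through 48.6 to 59.7 CPM in mKO mice, so that the groups nearly touched. Uqcrc1, a core protein of complex III, stood at 0.23 (adjusted p = 0.0316). In complex II the flavoprotein Sdha ran from 517 through 555 to 624 CPM in fKO and from 606 through 651 to 705 CPM in mKO mice, and 5 of 6 mKO mice exceeded every fKO mouse (0.21, adjusted p = 0.022). The iron-sulfur subunit Sdhb stood at 0.24 (adjusted p = 0.0316), while the membrane anchors Sdhc (0.12) and Sdhd (0.09) did not pass. With the offsets Uqcrc1 and Sdhb both stood at 0.15 (adjusted p = 0.100 and adjusted p = 0.121), and Uqcrc1 no longer had an unadjusted p under 0.01 without any 1 of 4 mice and Sdhb without any 1 of 5.

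In complex I the largest differences past the threshold were those of the accessory subunits Ndufa13 (0.39, adjusted p = 0.00695), Ndufb3 (0.39, adjusted p = 0.00342), Ndufa11 (0.39, adjusted p = 0.0284), Ndufs5 (0.39, adjusted p = 0.00659) and Ndufs6 (0.33, adjusted p = 0.00188). Ndufa10 (0.29), Ndufa4 (0.28), Ndufv3 (0.25), Ndufa1 (0.25), Ndufb9 (0.23) and Ndufv1 (0.21) made up the rest. With the offsets Ndufb9 stood at 0.12 (adjusted p = 0.292) and Ndufv1 at 0.14 (adjusted p = 0.0784), and Ndufv1 no longer had an unadjusted p under 0.01 without any 1 of 6 mice. Exons of Ndufa13 overlap Tssk6 on the other strand over 30% of their length, and exons of Ndufb9 overlap Gm49356 on the same strand over 19.5%. In complex V the subunits of the membrane part Atp5j2 (0.26, adjusted p = 0.0196) and Atp5mpl (0.25, adjusted p = 0.0311) and the catalytic-head subunit Atp5a1 (0.20, adjusted p = 0.0323) passed, and the unadjusted p of Atp5a1 was no longer under 0.01 without any 1 of 6 mice. Atp5b, the most abundant member, stood at 0.09 with an adjusted p of 0.405, and Atp5k at 0.23 with an adjusted p of 0.0532.

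**Figure D5:**
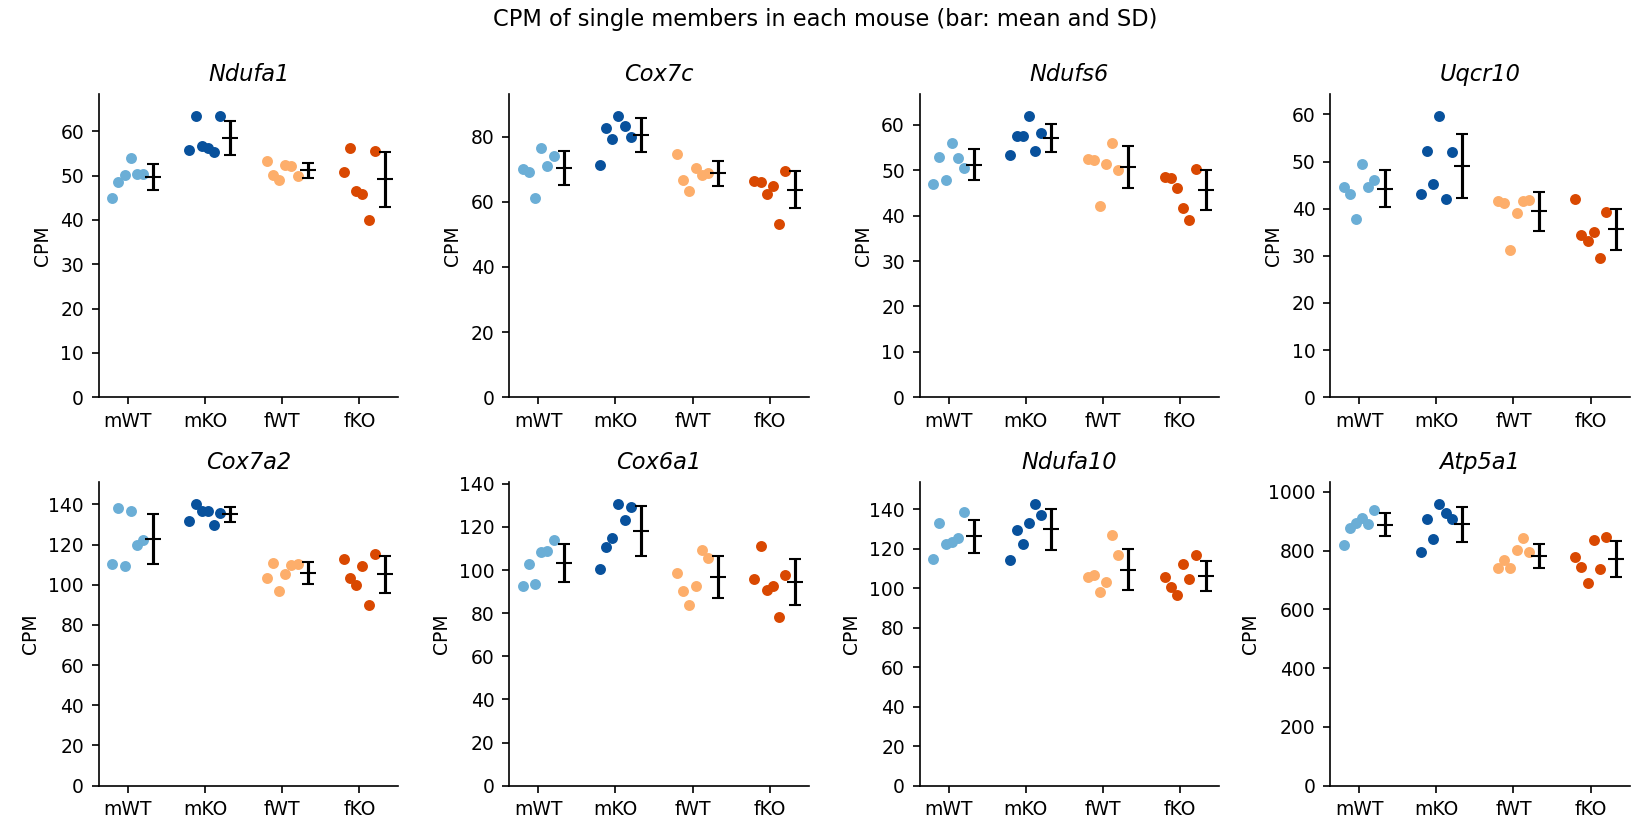
CPM of 8 members in each of 6 mice per group, with the mean and SD beside the points; each axis starts at 0. Ndufa1 does not overlap between mKO and mWT mice, Cox7c, Ndufs6, Uqcr10 and Cox7a2 do not overlap between mKO and fKO mice, and Ndufa10 and Atp5a1 differ mainly between the sexes.

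The count of 28 fell to 15 without fKO mouse 5, to 17 without fKO mouse 3, mKO mouse 5 or mKO mouse 6, to 18 without mKO mouse 4 and to 14 with the 2 groups fitted alone. Of the marker lists, 5 of 5 tested erythroid markers were also higher in mKO than in fKO mice with an adjusted p under 0.05. Their summed level ran from 155 to 260 CPM in the males and from 41.2 to 60.7 CPM in the females. Most of that sum was Alas2, the heme synthesis enzyme of erythroid cells (median level 125 CPM against 13.2 CPM), which also differed between wild type sexes, while Slc4a1, the band 3 protein, was at most 0.366 CPM in any mouse. Of the 9 hepatocyte markers 6 lay above 0 in mKO against fKO mice (median 0.07), with Ttr higher at an adjusted p under 0.05. Their sum ran from 110171 to 138806 CPM in mKO and from 128456 to 161250 CPM in fKO mice. The lists of the other liver cell types lay below 0 by median fitted value in this comparison. For 6 of 6 stellate cell markers the median was -0.44, with Lrat and Dcn lower at an adjusted p under 0.05, and the sum ran from 159 to 228 CPM in mKO and from 202 to 307 CPM in fKO mice. For 6 of 6 endothelial markers the median was -0.19, with Stab2 lower, and the sum ran from 126 to 154 CPM and from 131 to 189 CPM. The 6 Kupffer cell markers (median -0.51, sum from 64.9 to 183 CPM and from 102 to 183 CPM) and the 3 tested of 6 lymphocyte markers (median -0.83, sum from 5.83 to 11.6 CPM and from 7.80 to 17.1 CPM) held no such call, nor did the 3 tested of 5 cholangiocyte markers, of which 1 lay above 0. Between the wild type sexes 3 Kupffer, 3 endothelial, 1 stellate, 1 cholangiocyte and 1 lymphocyte marker were lower in males with an adjusted p under 0.05. Their part in the differences of the members was not tested.

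Of the 13 subunits encoded in mitochondrial DNA, 8 passed the filter. None differed between KO and WT mice of either sex with an unadjusted p under 0.01 (edgeR). Their median log2 fold change was 0.02 in males and 0.14 in females, with 6 and 8 of 8 above 0. In wild type mice all 8 were higher in males, 3 of them with an adjusted p under 0.05 (background 8.51% higher and 8.81% lower). They were the complex I subunits mt-Nd5 (log2 fold change 0.51, adjusted p = 0.000874), mt-Nd2 (0.37, adjusted p = 0.00893) and mt-Nd1 (0.32, adjusted p = 0.0466). mt-Nd5 ran from 4597 through 5431 to 6033 CPM in mWT and from 3455 through 3745 to 4289 CPM in fWT mice, without overlap. Of all genes, 3.66% were likewise higher in mWT than in fWT mice without overlap. Between mKO and fKO mice, where 28 nuclear members passed, 0 of the 8 had an adjusted p under 0.05 and their median was 0.16. Levels within this genome differed by orders of magnitude. mt-Co1 stood at 14040 CPM per kb, but mt-Co2, mt-Co3, mt-Nd3 and mt-Nd4l stood at 0.629 CPM per kb or less. In the latter 4 and in mt-Atp6 between 97.6% and 99.9% of the 100-base stretches also occur in a transcript of another gene, against 30.8% in mt-Co1 and 0 in mt-Cytb (9686 CPM per kb). Their measured values were therefore read as uncertain.

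Some subunits and carriers were not captured by the symbols. Cyc1, the cytochrome c1 of complex III, was higher in mKO than in fKO mice (log2 fold change 0.28, adjusted p = 0.00949), as was cytochrome c, Cycs (0.34, adjusted p = 0.00916). Cycs was also higher in mWT than in fWT mice (0.30, adjusted p = 0.0193). Atpif1, the inhibitor of the ATP synthase, was lower in mWT than in fWT mice (-0.50, adjusted p = 0.00821) and stood at -0.36 between mKO and fKO mice (adjusted p = 0.0645). Ndufab1, the acyl carrier subunit of complex I, stood at -0.04 between mKO and fKO mice.

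The 50 assembly factors had a median log2 fold change of 0.05 in males and -0.01 in females, and 0 had an adjusted p under 0.05 in either. Sco2, a copper chaperone of complex IV, was the 1 assembly factor with an unadjusted p under 0.01 in males (log2 fold change 0.68, adjusted p = 0.165). Sco2 ran from 21.3 through 29.6 to 46.7 CPM in mWT and from 37.4 through 48.1 to 62.6 CPM in mKO mice, with overlap. Between mKO and fKO mice 5 assembly factors were higher and 1 lower with an adjusted p under 0.05, and their median was 0.06 where that of the members was 0.20. For these counts and those of the lists that follow, the background in the same comparison is 7.26% of all genes higher and 7.13% lower. Among the 16 regulators of mitochondrial biogenesis, the median was -0.04 in males and -0.06 in females. Ppargc1a, the coactivator PGC-1α, stood at -0.04 in males and -0.06 in females. Polrmt, the RNA polymerase of mitochondria, had a log2 fold change of -0.37 in females (unadjusted p under 0.01, adjusted p = 0.929) and was higher in mKO than in fKO mice (0.42, adjusted p = 0.0118).

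The 25 partners that deliver electrons, ubiquinone or nucleotides had a median of 0.02 in males, and Pdss2, which makes the ubiquinone side chain, was the 1 with an unadjusted p under 0.01 (0.25, adjusted p = 0.274). Pdss2 was also higher in mKO than in fKO mice (0.44, adjusted p = 0.000788). Between mKO and fKO mice 4 partners were higher and 2 lower with an adjusted p under 0.05. The 18 genes of the citric acid cycle and pyruvate dehydrogenase had a median of 0.02 in males, 0.00 in females and 0.09 between mKO and fKO mice, with 3 higher and 0 lower in the last. The 78 mitochondrial ribosomal protein genes had a median of 0.05 in males, -0.02 in females and 0.13 between mKO and fKO mice, with 10 higher and 1 lower in the last. The 79 tested cytosolic ribosomal protein genes had a median of 0.04 in males, -0.08 in females and 0.05 between mKO and fKO mice, with 3 higher and 0 lower. For the KO effect in males less that in females their median was 0.10, as was that of the members, and 69 of these 79 ribosomal genes lay above 0.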

How the data were processed

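Hepatic RNAseq of 24 mice was used. The authors prepared stranded mRNA libraries, sequenced 100 bp single-end reads in one multiplexed run, trimmed with fastp 0.20, aligned with STAR 2.7a to GRCm38.p6 and counted with featureCounts, and the values they deposited are raw counts per Ensembl gene. The annotation release, the strand setting and the treatment of reads with several matches are not given in the sources used here. Of 25746 genes, 25635 were matched to GENCODE M21, whose transcripts gave lengths and shared 100-base stretches.

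The count test was edgeR's (version 4.0.16, in R 4.3.3). A gene was tested if 6 or more libraries reached 0.66 CPM, libraries were scaled by TMM, and a robust quasi-likelihood model with a mean per group was fitted to all 24 libraries and tested on simulated data. P-values are two-sided and were adjusted (Benjamini-Hochberg) over 12330 genes. Members with an unadjusted p under 0.01 or an adjusted p under 0.05 were counted. Printed CPM are TMM-scaled, except for the values set against the filter. CPM per kb used the best supported APPRIS principal transcript, the shortest where several tied.

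Named members are those with an unadjusted p under 0.01 in any of 5 comparisons, the 2 smallest p per complex in males and between wild type sexes, core subunits, isoform sets and the extremes of level. Members and lists were chosen with earlier results of these data known. Alternatives were DESeq2 1.42.0, its size factors, upper-quartile scaling, library size only, no filter, a filter in 2 libraries, non-robust dispersions, 2 groups alone, Mup genes removed, the mouse number as a block, offsets for length and GC content, and each mouse left out. Replicates are separate mice, and the closest pair of a group (fKO 2 and 3) differed by more than counting noise (chi-square per gene 8.14). Figures were drawn with matplotlib 3.10.9.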

Additional observations from a re-analysis of the deposited data

Results flagged for a closer look

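Among 140 tests of single mice within groups of 6, over the summed levels and the members with an unadjusted p under 0.01 in any comparison, 4 values stood apart by Dixon's ratio (above 0.625), where chance alone would mark about 1 in 20. The complex I sum was lowest in mKO mouse 1 (2588 CPM, ratio 0.723). Ndufs5 was highest in fKO mouse 6 (14.1 CPM, ratio 0.687), Uqcr10 was lowest in fWT mouse 3 (31.3 CPM, ratio 0.738), and Cox8a was highest in mWT mouse 6 (93.7 CPM, ratio 0.635).

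The KO effect differed between males and females with an unadjusted p under 0.01 for 3 members, by a log2 difference of 0.29 for Ndufa1, 0.31 for Ndufs6 and 0.30 for Cox7c, none of them with an adjusted p under 0.05 in edgeR.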

How the results depend on the processing

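The median over the members kept its sign under every alternative other than a mouse left out in males (0.03 to 0.10), for the difference between KO effects (0.03 to 0.14), between wild type sexes (0.02 to 0.10) and between KO sexes (0.12 to 0.21), the lowest value coming from the offsets for length and GC content except between wild type sexes. In females it was -0.08 to -0.00, and 0.01 without fKO mouse 5. No call reversed, and no scaling shifted the median of all genes by over 0.1 (the largest was -0.05). For members with an unadjusted p under 0.01, the count in males was 1 with the replicate block and 0 with the offsets (main 2; 0 to 3 with 1 mouse left out). In females it was 2 with library size only (main 0; 0 to 2 with 1 mouse left out), and for the difference between KO effects 1 with the offsets (main 3; 1 to 5). Between wild type sexes it was 6 with DESeq2, 0 with upper-quartile scaling or library size only, 1 with the 2 groups fitted alone and 15 with the offsets (main 3; 0 to 6), and the adjusted counts were the same, with 1 without the filter (0 to 6). Between KO sexes the adjusted count was 14 with the 2 groups alone (main 28; 15 to 34). The cause of these changes was not tested. The replicate numbers did not pair the mice, which are different animals (correlations of same-numbered deviations from -0.34 to 0.17).

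With 6 mice per group, the standard error of a log2 fold change was 0.07 for Ndufa1 near 50 CPM and 0.26 for Cox7a1 at the filter. Changes of about that size in single members were not detectable, and a call needed larger ones. Ndufa1, at 0.23 in males, had an adjusted p of 0.189 with edgeR. Reads shared between genes and a trend with transcript length limit the members that are short or have near-identical copies.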
